A study of Mus musculus with 6 samples.

Results

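The 48 genes described here encode the machinery that moves newly made secretory proteins into the endoplasmic reticulum (ER) and on to the Golgi apparatus. They are the Sec61 channel and its partners, the translocon-associated protein (TRAP) complex, the signal peptidase, the signal recognition particle (SRP) and its receptor, the COPII and COPI vesicle coats, and the cargo receptors. They were chosen by name for these roles, by a rule that uses no measured value but was set with earlier results of these data known, from the 54115 genes summed from the deposited transcripts. RNA-seq was performed on whole liver after a fast of 16 h, in males of 24 months, from 3 WT mice and from 3 *Sirt7* KO mice. SIRT7 is a nuclear NAD-dependent deacylase, and the knockout is a germline allele on a C57BL/6J background, obtained by repeated backcrossing, with WT littermates from heterozygous crosses as controls. All 6 livers shared age, sex and fasting, and the labels name no other allele or treatment that separates the groups. The line came from a mixed background, and donor alleles left near *Sirt7* were not examined. As whole liver was used, fewer cells of a type and less RNA per cell cannot be told apart.

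Secreted and membrane proteins carry a hydrophobic signal sequence that SRP binds as it leaves the ribosome, and the SRP receptor brings the ribosome to the Sec61 channel. The chain passes through the channel into the ER, with help from TRAM and TRAP, and the signal peptidase removes the signal sequence. Folded cargo leaves the ER in vesicles coated with COPII, in which the GTPase SAR1 recruits SEC23 and SEC24 as the inner coat and SEC13 and SEC31 as the outer coat. COPI vesicles return escaped ER proteins and receptors from the Golgi. The hepatocyte secretes albumin, apolipoproteins and clotting factors, and this route carries them out of the cell.

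The libraries held between 10608035 and 13424776 reads assigned to transcripts in WT mice and between 9994860 and 11107388 in *Sirt7* KO mice. Gene counts were compared by edgeR's quasi-likelihood test, with p-values adjusted by the Benjamini-Hochberg method over the 12524 genes left by a filter on low counts. Levels are given in CPM, the reads of a gene scaled to the size of the library after TMM normalization. A gene was called at an adjusted p under 0.05 and a fold change over 1.5. *Sirt7* itself was assigned 652, 501 and 639 reads in WT livers and 312, 394 and 423 in *Sirt7* KO livers (log2 fold change -0.41, standard error 0.18, adjusted p = 0.42 by edgeR). Its full-length isoform of 10 exons (ENSMUST00000080202.11) held 429, 381 and 408 reads in WT and 124, 135 and 78 in *Sirt7* KO livers, so every library stood on the side of its label. The hepatocyte markers summed to 63204 to 69084 CPM in WT and 65166 to 79434 CPM in *Sirt7* KO livers, and the ranges overlapped.

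Some genes of this pathway are known targets of the unfolded protein response, whose factors ATF6 and XBP1 bind short sequences in promoters. The promoters of the members were therefore searched on both strands for the words of these sites, in RefSeq windows of GRCm38.p6 from 250 bases before to 50 bases after the start, of which 37 of the 48 genes had one. The core of the unfolded protein response element without its first base, GACGTGG, was in 12 of the 37 promoters (32.4%), against 2.73% of all 27025 genes with a promoter and 4.12% of the 9244 tested genes that are no members. The 12 genes were *Copb1*, *Copb2*, *Copg1*, *Copz1*, *Kdelr3*, *Sar1a*, *Sec13*, *Sec23a*, *Sec24c*, *Sec24d*, *Sec63* and *Ssr1*. The longer core TGACGTGG, which contains the shorter word, was in 5 of the 37 promoters (13.5%), against 0.714% of all genes. Those 5 were *Copb1*, *Copb2*, *Kdelr3*, *Sec23a* and *Sec24d*. The ER stress element and its second form, ERSE-II, were in 0 of the 37 promoters, against 0.137% and 0.0444% of all genes. The cyclic AMP response element TGACGTCA was in the promoter of *Cope* alone among the members, against 2.03% of all genes.
The stretches below show the word GACGTGG, or its reverse complement CCACGTC, in capitals within 6 promoters, read 5′ to 3′ along the strand of the gene. The first 4 belong to genes with all *Sirt7* KO livers above all WT livers, and the last 2 to genes whose livers overlapped. Of the genes with the word that are not shown, *Copg1* and *Copz1* were apart in the same way. *Copb2*, *Sec13* and *Sec23a* overlapped, and *Kdelr3* was not tested.
Ssr1: cgcttagaggCCACGTCgacggtggcg
Sec24d: ccgggcgcctGACGTGGcactagcaac
Sec24c: gcctaaggccGACGTGGcagaaggagt
Sec63: gctgcgcgcgCCACGTCtccctcagtg
Sar1a: acagacgctgCCACGTCttaccccgct
Copb1: ccgcccccttCCACGTCagccaaggac
They lie at chr13:37994218-37994244 (minus strand), chr3:123267461-123267487 (plus), chr14:20674235-20674261 (plus), chr10:42761464-42761490 (plus), chr10:61680118-61680144 (plus) and chr7:114254692-114254718 (minus). The word begins 26 bases before the RefSeq start in *Ssr1*, 25 in *Sec24d*, 76 in *Sec24c*, 22 in *Sec63*, 157 in *Sar1a* and 28 in *Copb1*. A match describes letters in a window and is not a measured site.

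Most members had a log2 fold change of *Sirt7* KO over WT livers above 0, and the differences were small. Of the 48 genes, 47 passed the filter, with 39 to 3932 reads per liver (median 646), and *Kdelr3* did not, with 0, 1 and 0 reads in WT and 5, 0 and 1 in *Sirt7* KO livers. The log2 fold change was above 0 for 37 of the 47 genes (49.3% of all tested genes were above 0), and the median was 0.19, against -0.0061 over all tested genes. Scaled to total counts, which moved the median of all tested genes to -0.11, 29 of the 47 were above 0 and 37 of the 47 above that median. None of the 47 was called by edgeR, where 0.00798% of all tested genes were called, and 2 of the 47 passed an unadjusted p under 0.05 with a fold change over 1.5, where 4.42% of all tested genes passed and were higher. At an unadjusted p under 0.05, 11 of 47 genes (23.4%) were higher in *Sirt7* KO livers and 0 were lower, against 6.54% and 4.78% of all tested genes. Among the 7706 tested genes within the members' range of mean CPM, 8.02% were higher at this level. DESeq2 called 2 members without offsets for transcript length, *Spcs3* and *Sec23b*, where 1.57% of the genes it adjusted were called higher, and 1 with them, *Spcs3*, where 1.33% were.

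All 3 *Sirt7* KO livers lay above all 3 WT livers in 19 of the 47 genes (40.4%), against 8.74% of all tested genes. In 0 of the 47 did all *Sirt7* KO livers lie below, against 8.09%, and the genotypes overlapped in the other 28. The first *Sirt7* KO liver held the highest value of 19 genes, the second that of 13 and the third that of 4, while a WT liver held it for the other 11. The standard error of the log2 fold change was 0.13 to 0.42 (median 0.15), against a median of 0.25 over all tested genes.

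**Figure D1:**
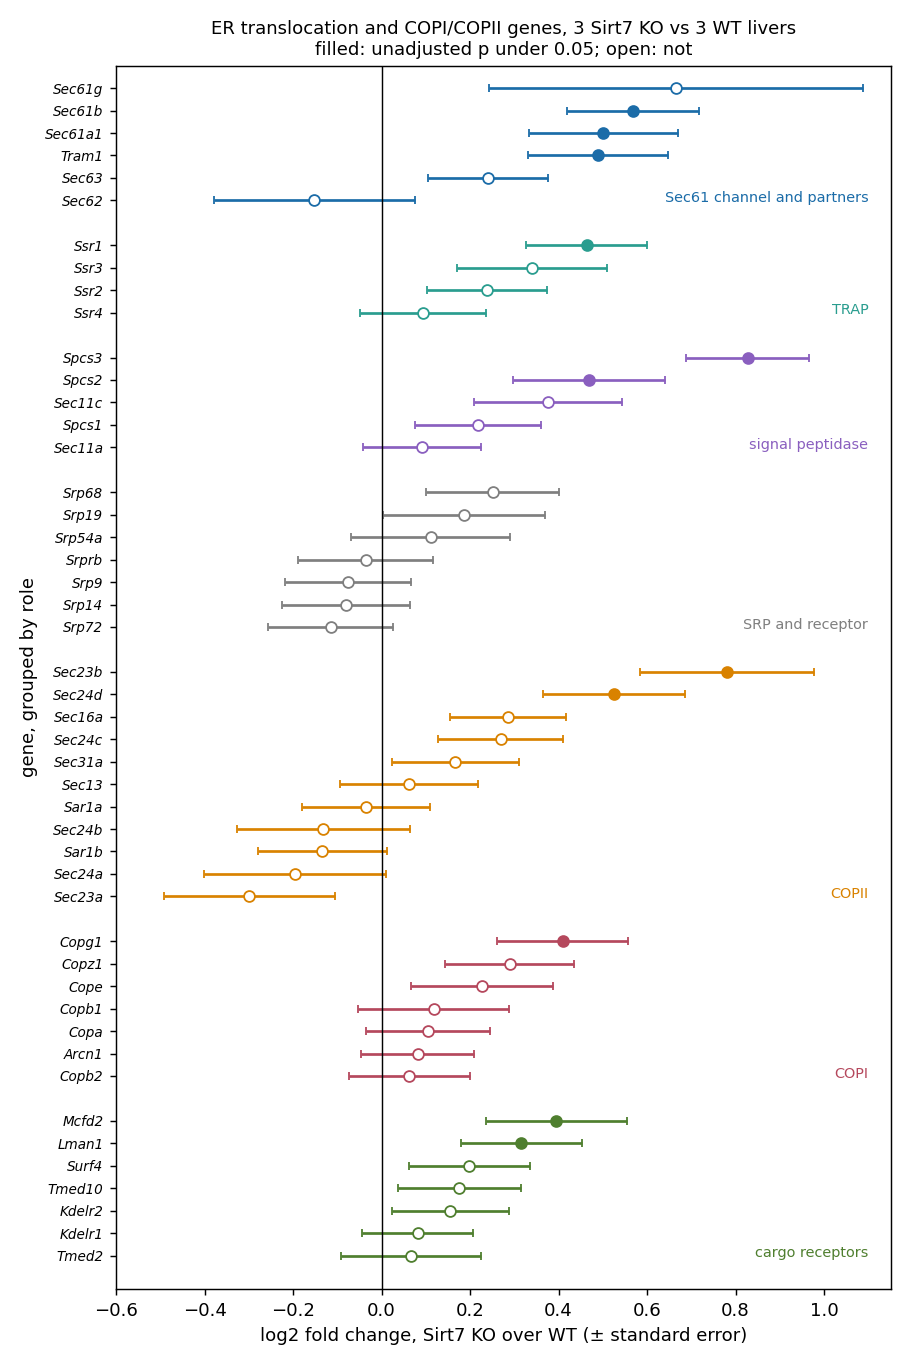
Log2 fold change of *Sirt7* KO over WT livers (x axis) with its standard error for each of the 47 tested genes, grouped by role (y axis). Filled points mark the 11 genes at an unadjusted p under 0.05, all to the right of 0, and the lowest point is *Sec23a* at -0.30.

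The genes of the Sec61 channel and its partners had a median log2 fold change of 0.50 (0.29 without the first *Sirt7* KO liver), with 5 of 6 above 0 and 3 of 6 higher at an unadjusted p under 0.05. *Sec61a1* (ENSMUSG00000030082.14, chr6:88503579-88518905) encodes the pore itself and measured 122, 92.5 and 111 CPM in WT livers and 130, 155 and 176 CPM in *Sirt7* KO livers. The genotypes did not overlap, and the log2 fold change was 0.50 (standard error 0.17, unadjusted p = 0.0156, adjusted p = 0.31 by edgeR). *Sec61b* (ENSMUSG00000053317.11, chr4:47474658-47483242), a small subunit on the side of the pore, measured 57.6, 48.7 and 42.9 CPM in WT and 75.4, 70.9 and 75.0 CPM in *Sirt7* KO livers. Its 3 *Sirt7* KO livers lay close together, above the highest WT liver, at a log2 fold change of 0.57 (standard error 0.15, unadjusted p = 0.00431, adjusted p = 0.21 by edgeR). *Tram1* (ENSMUSG00000025935.10, chr1:13564698-13589910), a membrane protein beside the channel, stood at 90.1, 73.9 and 83.4 CPM against 135, 109 and 103 CPM. The first *Sirt7* KO liver was the highest of the 6 and none overlapped with WT (log2 fold change 0.49, standard error 0.16, unadjusted p = 0.0127, adjusted p = 0.29 by edgeR).

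*Sec61g*, which encodes the other small subunit, had the largest log2 fold change of the role but also the largest error. It measured 6.18, 3.54 and 4.44 CPM in WT and 12.7, 4.87 and 4.82 CPM in *Sirt7* KO livers. Only the first *Sirt7* KO liver lay above the WT range (0.67, standard error 0.42, adjusted p = 0.60 by edgeR), and without it the value was 0.04. Its transcripts share 15.7% of their words of 31 bases with *Gm10177*, a copy that was assigned 138 to 220 reads in WT and 187 to 321 in *Sirt7* KO livers, more than *Sec61g* itself, so its counts are uncertain. With the reads of both added together, the value was 0.59 (standard error 0.25, adjusted p = 0.42 by edgeR). *Sec61b* shares 23.5% of its words, mostly with *Gm10320*, which held 0 reads in every liver. *Sec63*, a J-domain partner of the channel, stood higher in every *Sirt7* KO liver than in any WT liver, at 70.0 ± 6.73 against 82.7 ± 2.79 CPM (SD, n = 3), with a log2 fold change of 0.24 (standard error 0.14). *Sec62*, its partner in taking up finished chains, was the 1 gene of the role below 0, at -0.15 (standard error 0.23), and overlapped between genotypes.

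**Figure D2:**
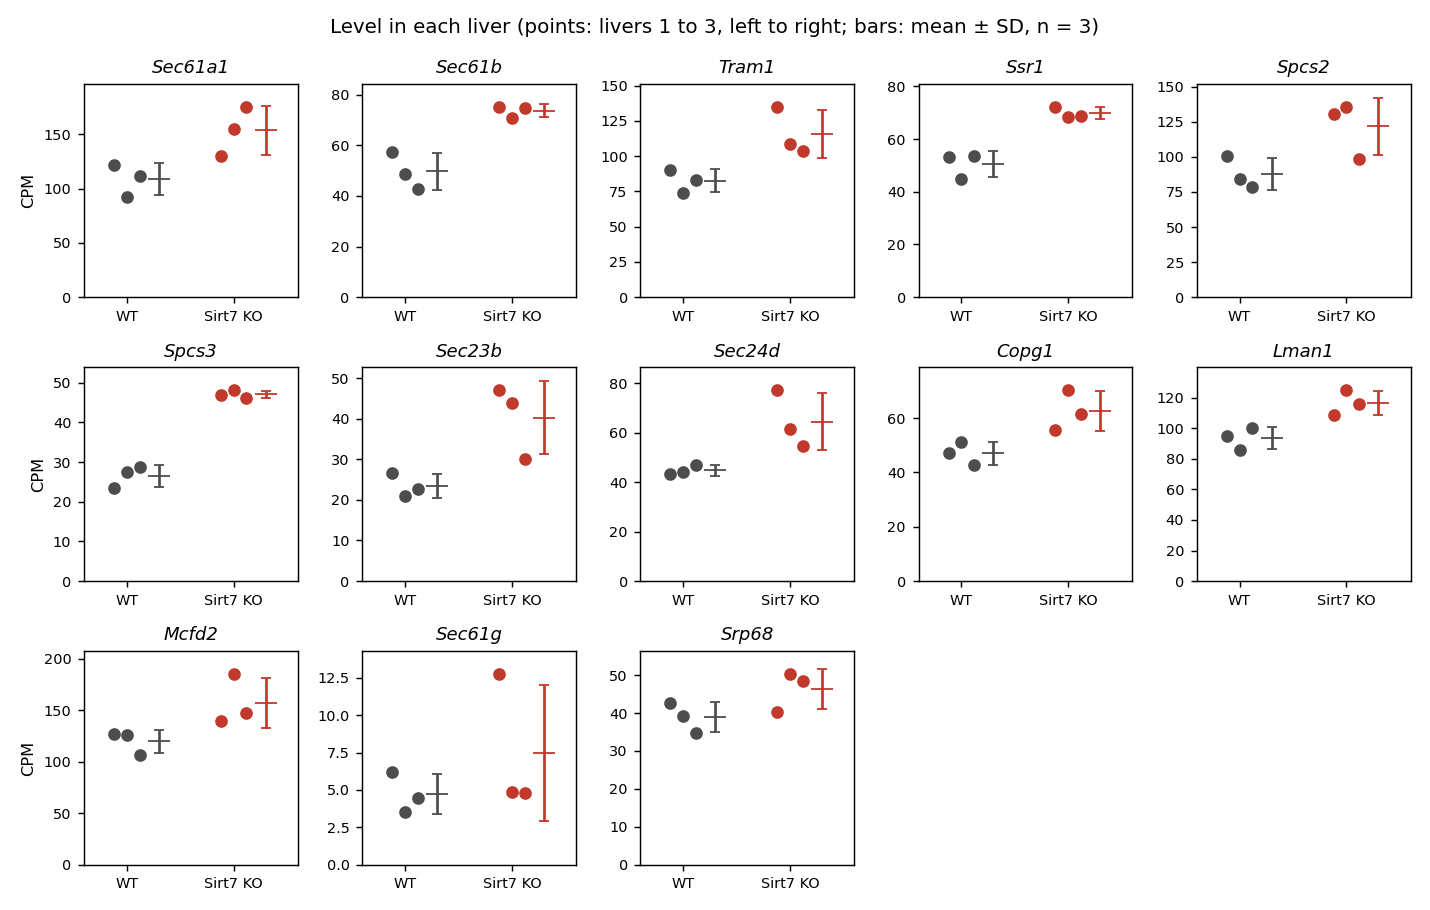
CPM in each liver (y axes, each from 0) of the 11 genes at an unadjusted p under 0.05 and of *Sec61g* and *Srp68*, with WT livers at the left and *Sirt7* KO livers at the right of each panel. Points are single livers and bars the mean ± SD (n = 3), and of the 11 genes *Spcs2* alone overlaps between genotypes.

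TRAP is a complex of 4 membrane proteins beside the channel that helps some signal sequences to open it. Each of the 4 lay above 0 (median 0.29), and 1 was higher at an unadjusted p under 0.05. Scaled to total counts, 3 of 4 lay above 0 and 4 of 4 above the median of all tested genes (-0.11). *Ssr1* (ENSMUSG00000021427.10, chr13:37966605-37994217), the alpha subunit, measured 53.3, 45.0 and 53.5 CPM in WT and 72.3, 68.3 and 68.7 CPM in *Sirt7* KO livers. The genotypes were apart by more than their own spread, at a log2 fold change of 0.46 (standard error 0.14, unadjusted p = 0.00794, adjusted p = 0.25 by edgeR). *Ssr2*, the beta subunit, also had every *Sirt7* KO liver above every WT liver (0.24, standard error 0.14), though the highest WT liver stood at 47.5 and the lowest *Sirt7* KO liver at 48.0 CPM. It shares 13.7% of its words with *Rtraf*, which held 772 to 948 reads per liver, more than *Ssr2* itself, so its counts are uncertain. *Ssr3* was at 0.34 (standard error 0.17) and *Ssr4* at 0.09 (standard error 0.14), both with overlap.

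The largest log2 fold change of the members was that of a signal peptidase gene. Each of the 5 genes lay above 0 on the log2 fold change scale (median 0.38, or 0.24 without the first *Sirt7* KO liver), and 2 were higher at an unadjusted p under 0.05. Scaled to total counts, 4 of 5 lay above 0 and 5 of 5 above the median of all tested genes (-0.11). *Spcs3* (ENSMUSG00000054408.9, chr8:54520433-54529998), a subunit without catalytic activity that the enzyme needs, measured 23.5, 27.4 and 28.8 CPM in WT and 47.0, 48.1 and 46.2 CPM in *Sirt7* KO livers. The *Sirt7* KO livers lay close together, all above the WT range, and the fold change was 1.77 (log2 fold change 0.83, standard error 0.14, unadjusted p = 0.000218, adjusted p = 0.10 by edgeR). By DESeq2 its adjusted p was 0.0027 without and 0.013 with offsets for transcript length. The gene has a single transcript of 5 exons in the annotation, so the assignment of reads among isoforms did not enter its value.

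*Spcs2* (ENSMUSG00000035227.7, chr7:99837569-99863462), an accessory subunit, measured 101, 84.6 and 78.7 CPM in WT and 130, 136 and 98.7 CPM in *Sirt7* KO livers. The third *Sirt7* KO liver lay within the WT range, and the log2 fold change was 0.47 (standard error 0.17, unadjusted p = 0.0232, adjusted p = 0.35 by edgeR). *Spcs1*, the smallest accessory subunit, had no overlap (0.22, standard error 0.14), but shares 13.4% of its words with other genes, mostly *Glt8d1*. Of the catalytic subunits, *Sec11c* was apart between genotypes (0.38, standard error 0.17), with 25.8, 31.8 and 32.5 CPM against 46.2, 35.7 and 35.0 CPM. *Sec11a* overlapped (0.09, standard error 0.13).

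In contrast to these groups, the 7 genes of SRP and its receptor had a median log2 fold change of -0.04, with 3 above 0 and 4 below, 0 at an unadjusted p under 0.05 in either direction by edgeR, and overlap between genotypes in all 7. The largest value was that of *Srp68* (ENSMUSG00000020780.15, chr11:116245166-116274217), which with *Srp72* forms the large protein pair of the particle. It measured 42.7, 39.2 and 34.8 CPM in WT and 40.3, 50.2 and 48.4 CPM in *Sirt7* KO livers (0.25, standard error 0.15, adjusted p = 0.58 by edgeR). The first *Sirt7* KO liver, the highest for many other members, lay within the WT range here. *Srp72* stood at -0.12 (standard error 0.14). *Srp9* and *Srp14*, which form the dimer that slows translation, were both at -0.08 (standard errors 0.14). *Srp54a*, the GTPase that binds the signal sequence, was at 0.11, but it shares 72.5% of its words with *Srp54b* and *Srp54c*, and with all 3 added together the value was -0.04 (standard error 0.16). *Srprb*, the membrane subunit of the receptor, was at -0.04 (standard error 0.15), and *Srp19* at 0.19 (standard error 0.18).

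Among the 11 COPII genes, 6 had a log2 fold change above 0 and 5 below (median 0.06), and the 2 at an unadjusted p under 0.05 were each 1 member of a set of paralogs. With total counts 5 were above 0 (median -0.04) and 6 above the median of all tested genes (-0.11). With length offsets 7 were above 0 (median 0.30). When a liver was left out the median was between 0.01, without the third WT liver, and 0.16, without the second. *Sec23b* (ENSMUSG00000027429.16, chr2:144556229-144590749) encodes a subunit of the inner coat that activates the SAR1 GTPase. It measured 26.7, 20.9 and 22.8 CPM in WT and 47.0, 43.8 and 30.1 CPM in *Sirt7* KO livers, a fold change of 1.72 (log2 fold change 0.78, standard error 0.20, unadjusted p = 0.00323, adjusted p = 0.19 by edgeR). All *Sirt7* KO livers stood above WT, the third by the least. DESeq2 gave an adjusted p of 0.035 without and 0.063 with offsets for transcript length. *Sec23a*, its paralog, had the lowest value of all members, at -0.30 (standard error 0.19, adjusted p = 0.61 by edgeR), with 38.7, 51.0 and 59.9 CPM against 44.5, 43.3 and 33.8 CPM and overlap between genotypes.

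SEC24 proteins bind the cargo, and the 4 paralogs took different values. *Sec24d* (ENSMUSG00000039234.11, chr3:123267455-123365641) measured 43.1, 44.0 and 47.0 CPM in WT and 77.1, 61.5 and 54.5 CPM in *Sirt7* KO livers. Every *Sirt7* KO liver was above the narrow WT range (log2 fold change 0.53, standard error 0.16, unadjusted p = 0.00976, adjusted p = 0.26 by edgeR). *Sec24c*, the closest relative of *Sec24d*, also had no overlap (0.27, standard error 0.14, adjusted p = 0.53 by edgeR). *Sec24a* (-0.20, standard error 0.21) and *Sec24b* (-0.13, standard error 0.19), which form the other pair by sequence, both overlapped. *Sec16a*, the scaffold of ER exit sites, had all *Sirt7* KO livers above WT (0.28, standard error 0.13, unadjusted p = 0.0575, adjusted p = 0.46 by edgeR). The GTPase genes *Sar1a* (-0.04, standard error 0.14) and *Sar1b* (-0.13, standard error 0.15) and the outer coat genes *Sec13* (0.06, standard error 0.16) and *Sec31a* (0.17, standard error 0.14) overlapped. *Sar1b* and *Sec24a* lie head to head on chromosome 11, with 52 bases between their annotated ends, and both were below 0.

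The ratio of the reads of 2 related genes within a liver does not depend on how libraries are scaled. These pairs were chosen after the values had been seen, so the ratios are given with no test. The ratio of *Sec23b* to *Sec23a* was 0.69, 0.41 and 0.38 in WT livers and 1.06, 1.01 and 0.89 in *Sirt7* KO livers. That of *Sec24d* to *Sec24a* was 1.38, 1.35 and 1.25 in WT and 1.97, 2.59 and 2.13 in *Sirt7* KO livers. Neither ratio overlapped between genotypes. *Spcs3* to *Sec11a* was 0.50 to 0.60 in WT and 0.84 to 0.96 in *Sirt7* KO livers. By contrast, *Sar1b* to *Sar1a* (at most 3.27 in WT and 2.26 to 2.66 in *Sirt7* KO livers) and *Kdelr2* to *Kdelr1* (0.99 to 1.14 and 1.05 to 1.21) overlapped.

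**Figure D3:**
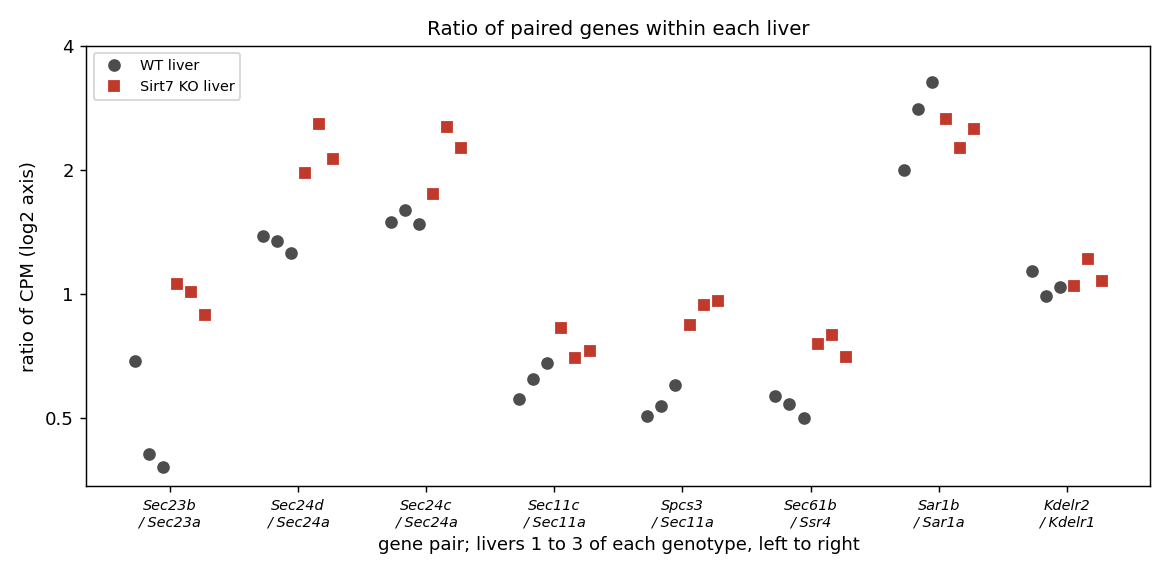
Ratio of CPM of 2 genes within each liver (y axis, log2 scale) for 8 pairs (x axis), with WT livers as gray circles and *Sirt7* KO livers as red squares. The *Sec23b* to *Sec23a* ratio lies at 0.69 or below in WT and at 0.89 or above in *Sirt7* KO livers, while *Sar1b* to *Sar1a* and *Kdelr2* to *Kdelr1* overlap.

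The 7 COPI genes all had a log2 fold change above 0, but most were small (median 0.12). Scaled to total counts, 4 of 7 were above 0 and 7 of 7 above the median of all tested genes (-0.11). With length offsets 6 were above 0 and the median was 0.30 in edgeR, and without the first WT liver 6 were above 0 and the median was 0.18. *Copg1* (ENSMUSG00000030058.17, chr6:87887814-87913595), the gamma subunit of the coat, was the 1 gene at an unadjusted p under 0.05. It measured 47.3, 51.2 and 42.8 CPM in WT and 55.7, 70.3 and 61.7 CPM in *Sirt7* KO livers, with no overlap (0.41, standard error 0.15, unadjusted p = 0.0225, adjusted p = 0.35 by edgeR). *Copz1*, the zeta subunit that pairs with gamma, was also apart between genotypes (0.29, standard error 0.15, adjusted p = 0.50 by edgeR). The other 5, *Copa*, *Copb1*, *Copb2*, *Cope* and *Arcn1*, had log2 fold changes of 0.06 to 0.23 and overlapped.

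Of the 8 cargo receptor genes, the 7 tested had a log2 fold change above 0 (median 0.18). Scaled to total counts, 5 of 7 were above 0 and 7 of 7 above the median of all tested genes (-0.11). In the main fit 2 were at an unadjusted p under 0.05. These 2 form 1 receptor. *Lman1* encodes the lectin ERGIC-53 and *Mcfd2* its calcium-binding partner, which together carry coagulation factors V and VIII out of the ER. *Lman1* (ENSMUSG00000041891.16, chr18:65980738-66022580) measured 94.8, 86.0 and 100.1 CPM in WT and 109, 125 and 116 CPM in *Sirt7* KO livers (0.32, standard error 0.14, unadjusted p = 0.0457, adjusted p = 0.42 by edgeR). *Mcfd2* (ENSMUSG00000024150.12, chr17:87254443-87265935) measured 127, 126 and 107 CPM in WT and 140, 185 and 148 CPM in *Sirt7* KO livers (0.40, standard error 0.16, unadjusted p = 0.0350, adjusted p = 0.39 by edgeR). Neither overlapped between genotypes, and the second *Sirt7* KO liver was the highest for both. Of the fits that left a liver out, only that without the first *Sirt7* KO liver kept them at an unadjusted p under 0.05 by edgeR. With length offsets in edgeR, *Lman1* stood at 0.13 and *Mcfd2* at 0.48.

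*Surf4*, a receptor for lipoproteins and other soluble cargo, had all *Sirt7* KO livers above WT (0.20, standard error 0.14), with 291 to 301 CPM in WT and 310 to 365 CPM in *Sirt7* KO livers. *Kdelr1*, a receptor that returns chaperones with a KDEL end to the ER, was also apart (0.08, standard error 0.13), with the nearest livers at 53.3 CPM in WT and 53.9 CPM in *Sirt7* KO. *Kdelr2* (0.16, standard error 0.13) and the p24 genes *Tmed10* (0.18, standard error 0.14) and *Tmed2* (0.07, standard error 0.16), which sort lipid-anchored cargo, overlapped. *Tmed2* shares 24.7% of its words, mostly with its copy *Gm10698*, and stood at 0.08 with the copy added.

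The difference between the roles was not tested, and the following values describe it. The median deviation of the members from their mean over the 6 livers, on log2(CPM + 0.5), was -0.08, -0.08 and -0.12 in WT livers and 0.07, 0.11 and 0.03 in *Sirt7* KO livers, while over all tested genes it was 0.00 to 0.03 in every liver. The Sec61 group (-0.35 to -0.04 in WT, 0.08 to 0.36 in *Sirt7* KO) and TRAP (-0.23 to -0.15 and 0.07 to 0.26) were apart in the same way. SRP was not, with -0.09 to 0.05 in WT and -0.07 to 0.06 in *Sirt7* KO livers. The first *Sirt7* KO liver was the highest for the Sec61 group, TRAP and the signal peptidase, and the second for the cargo receptors.

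**Figure D4:**
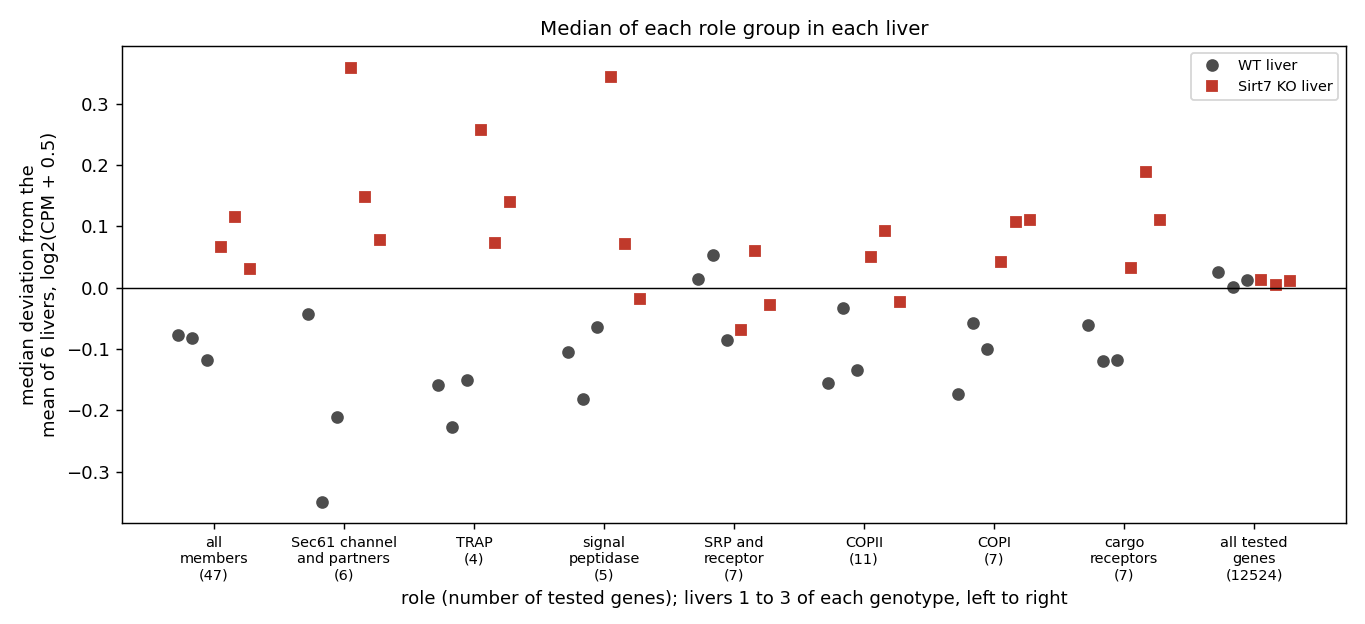
Median deviation from the mean of 6 livers, in log2(CPM + 0.5) (y axis), of the genes of each role in each liver (x axis, with the number of tested genes), with WT livers as gray circles and *Sirt7* KO livers as red squares. *Sirt7* KO livers lie above WT livers in every role but SRP and its receptor, where the ranges of -0.09 to 0.05 and -0.07 to 0.06 overlap. The gap is smallest for COPII, with the nearest livers at -0.033 in WT and -0.023 in *Sirt7* KO.

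The levels of different genes were compared in TPM, which is per length of transcript. The mean over 6 livers was highest for *Cope* (215.7 TPM), *Sec61b* (163 TPM), *Ssr4* (146 TPM), *Tmed2* (141 TPM) and *Tmed10* (127 TPM). It was lowest for *Sec24b* (4.14 TPM), *Sec24a* (5.73 TPM) and *Srprb* (6.01 TPM), with *Kdelr3* at 0.07 TPM. *Spcs3*, at 6.91 ± 0.43 TPM in WT and 11.9 ± 0.53 TPM in *Sirt7* KO livers (SD, n = 3), was the least abundant signal peptidase gene in both genotypes. Among the SEC24 genes the order of the means was *Sec24c* (14.4 TPM), *Sec24d* (12.8 TPM), *Sec24a* and *Sec24b*, and in *Sirt7* KO livers *Sec24c* and *Sec24d* overlapped. *Sec23a* had the higher level in WT livers (12.2 to 17.3 TPM, against 7.31 to 11.7 TPM for *Sec23b*), and in *Sirt7* KO livers *Sec23b* had the higher mean (15.1 ± 2.57 against 11.8 ± 1.78 TPM, SD, n = 3), where the ranges overlapped. Summed over a role, TPM did not overlap between genotypes for the Sec61 group (231 to 323 in WT, 330 to 346 in *Sirt7* KO) and the signal peptidase (294 to 338 and 353 to 394), and overlapped for the others.

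**Figure D5:**
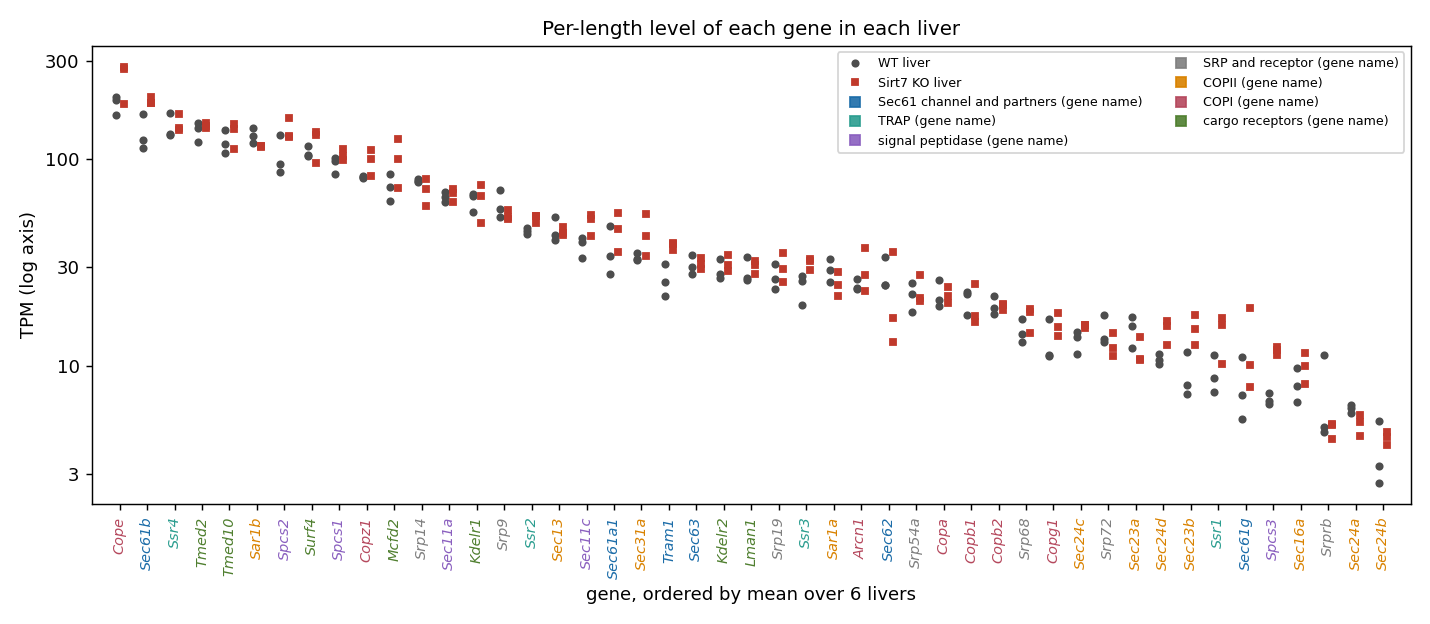
TPM (y axis, log scale) of the 47 tested genes in each liver, ordered by their mean over the 6 livers (x axis, names colored by role), with WT livers as gray circles and *Sirt7* KO livers as red squares. Levels run from 215.7 TPM for *Cope* to 4.14 TPM for *Sec24b*, and *Kdelr3* is not drawn.

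Because the reads are spread over full-length cDNA, a change in the isoforms of a gene can move its count, and the average transcript length of each gene was therefore also used as an offset. With it, the edgeR log2 fold change moved by over 0.2 in 6 genes. *Ssr1* went from 0.46 to 0.70, *Sec31a* from 0.17 to 0.42, *Cope* from 0.23 to 0.45 and *Arcn1* from 0.08 to 0.30. *Srprb* went from -0.04 to -0.42, and *Sec24b* turned from -0.13 to 0.32. The average length was shorter in every *Sirt7* KO liver than in any WT liver for *Sec31a*, *Sec24b* and *Cope*. The share of all tested genes with lengths apart in this way was not taken, so this is not read as a result about the members. In *Cope* the transcript of 10 exons (ENSMUST00000066469.13) took 22.1%, 23.0% and 29.1% of the gene's TPM in WT and 21.9%, 7.30% and 13.6% in *Sirt7* KO livers. The shares of some short transcripts differed widely between livers of 1 genotype, as for ENSMUST00000164758.1 of *Sec24b* (59.2%, 0% and 0% in WT livers), so these shares are uncertain. With the offsets 11 genes were again higher at an unadjusted p under 0.05, of which *Cope*, *Sec31a* and *Ssr3* were not among the 11 without them, and *Copg1*, *Lman1* and *Sec61a1* were no longer so.

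The short promoter core described above was found in genes of both signs. The 11 tested members that hold it had a median log2 fold change of 0.24, and the 25 tested members with a promoter that lacks it 0.11. Those that hold it include *Sec24d* (0.53) and *Ssr1* (0.46), but also *Sar1a* (-0.04) and *Sec23a* (-0.30). For the longer core TGACGTGG the order was the reverse, at 0.09 in the 4 tested members that hold it and 0.17 in the 32 that lack it. *Spcs3*, *Sec61a1*, *Tram1* and *Lman1* had no promoter in the table.

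Other genes of the route, are given from lists made by role, not by how the genes moved. Of 91 genes in 7 lists 88 were tested, of which 57 had a log2 fold change above 0 (median 0.09). Scaled to total counts, 39 were above 0 (median -0.02) and 56 above the median of all tested genes (-0.11). By edgeR 7 (7.95%) were higher and 3 lower at an unadjusted p under 0.05, against 6.54% and 4.78% of all tested genes, so that these shares were near the background, and 0 were called. Without the first or the third WT liver the median was 0.06. Of the 14 tested paralogs and accessory factors of the channel and SRP, 6 were above 0 and 8 below (median -0.04), or 4 above when scaled to total counts. Among them *Serp1*, which stabilizes Sec61 under stress, stood at 134 to 149 CPM in WT and 182 to 194 CPM in *Sirt7* KO livers (0.44, standard error 0.13, adjusted p = 0.25 by edgeR). *Ostc*, a subunit of the oligosaccharyltransferase at the channel, was at 0.48 (standard error 0.19). *Sec61a2*, the paralog of *Sec61a1*, had the opposite sign, with at least 5.99 CPM in every WT and at most 3.75 CPM in every *Sirt7* KO liver (-1.11, standard error 0.31, adjusted p = 0.22 by edgeR). Of the 10 genes of the ER membrane complex, which inserts membrane proteins, 5 were above 0, or 4 when scaled to total counts, and *Emc6* was lower at that level (-0.34, standard error 0.13). Of the 7 genes of tail-anchored protein insertion 5 were above 0, or 2 when scaled to total counts, and 0 were at an unadjusted p under 0.05 by edgeR. In that scaling, 6 of the 14, 5 of the 10 and 5 of the 7 genes lay above the median of all tested genes.

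Beyond the ER, 14 of 19 accessory genes of ER exit sites were above 0, or 10 when scaled to total counts, with *Sec22b*, a SNARE of COPII vesicles, higher (0.45, standard error 0.18) and *Sec31b*, the paralog of *Sec31a*, lower (-0.71, standard error 0.27) at an unadjusted p under 0.05. Each of the 10 genes of COPI paralogs and the ARF cycle was above 0 (median 0.17), or 7 of 10 when scaled to total counts, with *Arf5* at that level (0.47, standard error 0.18). Of 19 genes of the intermediate compartment and Golgi tethers 11 were above 0, or 8 when scaled to total counts, and *Ergic1* was higher at that level (0.40, standard error 0.14). Of the 9 other p24 proteins and lectins 6 were above 0, or 4 when scaled to total counts, and *Tmed3* (10.8 to 14.6 CPM in WT, 17.3 to 23.0 CPM in *Sirt7* KO; 0.70, standard error 0.19, adjusted p = 0.22 by edgeR) and *Tmed9* (0.39, standard error 0.14) were higher at that level, both without overlap. Scaled to total counts, 14 of 19, 10 of 10, 11 of 19 and 5 of 9 genes of these lists, in this order, lay above the median of all tested genes (-0.11). A reference list of 19 unfolded protein response genes had 15 above 0 and 8 higher at an unadjusted p under 0.05 (42.1%, against 6.54% of all tested genes), with a median of 0.42. That median was 0.25 without the third *Sirt7* KO liver and 0.30 with length offsets in edgeR. Scaled to total counts, 12 of the 19 were above 0 and 16 above the median of all tested genes (-0.11). These genes were listed with their behavior in these data known. By p these were led by *Hsp90b1* (0.60), *Hyou1* (0.81), *Hspa5* (0.77), *Sdf2l1* (1.68, standard error 0.45) and *Dnajb11* (0.49), whose *Sirt7* KO livers all lay above WT. Of the 19 genes 0 were called (lowest adjusted p = 0.17 by edgeR), where 0.00798% of all tested genes were called. All *Sirt7* KO livers lay above all WT livers in 7 (36.8%, against 8.74% of all tested genes), and the other 12 overlapped.

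Markers of other cell types were read beside these values, as plasma cells also hold much of this machinery. The 10 B and plasma cell markers, of which 5 were tested and 0 were at an unadjusted p under 0.05 by edgeR, summed to 30.8 to 66.6 CPM in WT and 26.9 to 81.9 CPM in *Sirt7* KO livers, with *Tnfrsf17* at 0 in every liver. The 5 erythroid markers summed to 374 to 546 CPM in WT and 446 to 915 CPM in *Sirt7* KO livers, and 1 of 5, *Alas2*, was higher at an unadjusted p under 0.05. The part of the erythroid markers in the results was not tested. In the lists for Kupffer cells, sinusoidal endothelium, stellate cells, cholangiocytes and T and NK cells, 27 of 34 markers were tested (2 of 7 for T and NK cells and 4 of 6 for cholangiocytes), of which 0 were at an unadjusted p under 0.05 by edgeR in either direction, and the summed levels overlapped between genotypes.

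The counts above rest in part on single livers and on scaling. Scaled to total counts, 4 genes were higher at an unadjusted p under 0.05 (*Sec23b*, *Sec24d*, *Sec61b* and *Spcs3*), and the members' median was 0.08, where that of all tested genes was -0.11. Without the second WT liver 6 of the genes were higher at that level, without the second or the third *Sirt7* KO liver 7 each, and without the first *Sirt7* KO liver 13, with *Sec62* and *Sec24a* then lower. In the fits with total counts or with a liver left out, the share over all genes was not taken. *Spcs3*, *Sec23b*, *Sec61b*, *Ssr1* and *Sec24d* stayed at an unadjusted p under 0.05 whichever liver was left out.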

How the data were processed

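Liver RNA of 3 WT and 3 *Sirt7* KO mice was made into cDNA with the SMART-seq HT kit and Nextera XT libraries and sequenced from a single end. The authors' steps were trimming with Trim Galore 0.6.5 and quantification on transcripts of GRCm38 with Salmon 1.2.1. The deposited values of each liver are, per transcript, the estimated count, without normalization, and TPM, which the authors' Salmon run scales by effective length and total. Replicates were not pooled. The annotation release is not given in the sources used here.

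The estimated counts of 140992 transcripts were summed per gene of GENCODE M21 and rounded. The 1201 transcripts without a gene there, with 0.303% to 0.492% of the reads of a liver, were left out. Genotypes were compared with edgeR 4.0.16 (R 4.3.3), with its quasi-likelihood test, TMM, filterByExpr (minimum count 10) and no covariates. The standard error is the log2 fold change over the root of F. DESeq2 1.42.0, with and without average transcript length offsets, was an alternative, and its adjusted p was used as given. The biological coefficient of variation was 26.4%. Libraries of 1 genotype differed beyond sampling noise (the lowest chi-square per gene was 17.5), and each counted as 1 sample. No molecular identifiers are named, so copies made by amplification could not be removed, and the error of the counts can exceed counting error. The fits were tested on simulated data.

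The members, lists and alternatives were chosen with earlier results of these data known. Genes named with every liver's value were those at an unadjusted p under 0.05 and the largest change of each role, and any gene called by DESeq2 with offsets. *Sec23a*, *Sec11c* and the gene pairs were added after their values were seen. Of other lists up to 5 genes at that p were named. Promoter words and words of 31 bases shared between genes were searched with Python 3.11.15.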

Additional observations from a re-analysis of the deposited data

How the results depend on the processing

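The main result, 0 members called by edgeR, became 2 with no filter on low counts (*Spcs3* and *Sec23b*), 2 by DESeq2 without length offsets, 1 by DESeq2 with them and 2 at an unadjusted p under 0.05 with a fold change over 1.5, where 4.42% of all tested genes were higher. It was 0 to 1 when a liver was left out, with *Spcs3* called without the first *Sirt7* KO liver (adjusted p = 0.034 by edgeR). The number higher at an unadjusted p under 0.05, 11, became 4 with total counts and 6 to 13 when a liver was left out, and the number lower, 0, became 0 to 2 (*Sec23a* without the first WT liver, and *Sec62* and *Sec24a* without the first *Sirt7* KO liver). The median log2 fold change was 0.079 with total counts, against 0.16 to 0.22 under the other settings. With total counts the median of all tested genes was -0.11. The members' median lay 0.194 above that of all tested genes with total counts and 0.193 above it in the main fit. The share over all genes was taken only in the main fit and, for calls, in DESeq2, so the counts in the other fits are not read as a result about the members. The cause of these changes was not tested.

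Single genes near 0 changed sign. With total counts this held for *Ssr4* (-0.021), *Sec11a* (-0.012), *Sec13* (-0.039), *Copa* (-0.010), *Copb2* (-0.041), *Arcn1* (-0.028), *Kdelr1* (-0.025) and *Tmed2* (-0.043). With length offsets it held for *Sec24b* (0.316 in edgeR, 0.328 in DESeq2) and *Copb1* (-0.024 and -0.017). With copies merged, an alternative chosen after seeing the data, *Srp54a* stood at -0.042. When a liver was left out, the values went from -0.13 to 0.014 for *Srp14*, -0.038 to 0.22 for *Srp54a*, -0.084 to 0.010 for *Srprb*, -0.024 to 0.21 for *Sec13*, -0.11 to 0.056 for *Sar1a*, -0.065 to 0.23 for *Copb1*, -0.011 to 0.15 for *Copb2* and -0.065 to 0.16 for *Tmed2*. Of all other values of named results, 725 kept their direction and side of the threshold and 6 passed it. As 0 members were called in the main fit, a value kept its side by staying uncalled. The settings refit the same livers, so these counts do not measure how firm a value is.

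The replicate numbers come from the labels. Deviations of same-numbered livers correlated at 0.065, 0.080 and -0.044 across genes, and those of differently numbered livers at -0.10 to 0.049. With 3 mice per genotype these values cannot show whether the numbers pair the mice. With the replicate number as a block, 10 members were higher at an unadjusted p under 0.05, 0 were called, and the median was 0.18. *Kdelr3*, with 0 to 5 reads per liver, was too shallow to test.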
